A study of Mus musculus with 12 samples.

Results

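The 8 genes H2-K1, H2-D1, H2-T23, B2m, Tap1, Tap2, Tapbp and Nlrc5 of MHC class I antigen presentation were followed in spinal motor neurons (SMNs) of the mouse. H2-K1, H2-D1 and H2-T23 encode heavy chains, B2m the light chain, Tap1, Tap2 and Tapbp proteins of peptide loading, and Nlrc5 a transcriptional activator of the class I genes. They were chosen by symbol from the array's annotation, which pairs each measured row with gene symbols, and a row was kept only where it carried exactly 1 symbol. At the gene level, where each row summarises a whole transcript cluster, 4 of the 8 genes (B2m, Tap1, Tap2 and Tapbp) had such a row among 24343 rows with 1 symbol. At the exon level, where each row is a probeset that covers a short stretch of a gene, all 8 had rows, with 119 probesets of 1195555 in all. There were 16 for H2-K1, 12 for H2-D1, 9 for H2-T23, 5 for B2m, 19 for Tap1, 18 for Tap2, 11 for Tapbp and 29 for Nlrc5. Another 7 gene-level rows and 17 probesets carried one of these symbols together with others and were not used.

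Affymetrix exon arrays were hybridised with RNA from the cervical spinal cord of 6-week-old male C57Bl/6 mice (C57BL/6J in the methods), with no treatment and no genetic change in any group. The SMN arrays (anterior horn cells in the labels) held large cells cut one by one out of the anterior horn with a laser. The posterior horn arrays (posterior column in the labels) held whole pieces of dorsal horn tissue, so that neurons, glia and vessels were collected together. There were 3 arrays per group, the tissue of each group came from 3 mice, and the labels do not say whether an array stands for 1 mouse, so the p-values measure the spread between arrays, which may be technical. In such bulk samples, fewer cells of a type and less RNA per cell cannot be told apart.

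Class I molecules consist of a heavy chain and β2-microglobulin, and carry peptides from inside the cell to its surface. The peptides are cut by the proteasome, pumped into the endoplasmic reticulum by the TAP1 and TAP2 transporter, and loaded on the heavy chain with the help of tapasin, the product of Tapbp. In the immune system these complexes are read by cytotoxic T cells and natural killer cells. Most neurons express little class I, and motor neurons of rodents are among the neurons in which class I transcripts are well known. Transcription of the heavy chain and B2m genes is driven by nearby promoter elements, namely enhancer A, which binds NF-κB, an element that binds interferon regulatory factors, and the S-X-Y module, through which NLRC5 acts.

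The promoters of the 2 classical heavy chain genes are shown because their control elements are alike while the values of these genes ran in opposite directions. Each sequence is the stretch of the promoter that holds the elements, taken from RefSeq (GRCm38.p6), 5′ to 3′ on the gene's own strand, and capitals mark the motifs found by search. The H2-K1 stretch is chr17:34000330-34000462 on the minus strand, and the H2-D1 stretch is chr17:35262919-35263050 on the plus strand. The B2m stretch, chr2:122147543-122147643 on the plus strand, is shown beside them as that of the light chain with which both heavy chains pair.
H2-K1: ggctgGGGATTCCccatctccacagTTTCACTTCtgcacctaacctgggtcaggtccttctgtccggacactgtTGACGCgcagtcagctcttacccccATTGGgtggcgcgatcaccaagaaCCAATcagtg
H2-D1: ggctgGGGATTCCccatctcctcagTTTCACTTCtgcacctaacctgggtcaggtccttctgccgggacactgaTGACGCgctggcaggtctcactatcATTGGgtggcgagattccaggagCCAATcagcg
B2m: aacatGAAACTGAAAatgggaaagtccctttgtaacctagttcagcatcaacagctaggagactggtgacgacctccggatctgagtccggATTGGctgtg

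In H2-K1 and H2-D1 the capitals are, in order, the kappaB motif of enhancer A (GGGATTCC), the core that interferon regulatory factors bind (GAANNGAAA, here on the opposite strand), the X2 box (TGACGC) and the Y box (CCAAT), which occurs on both strands. From the bases before the kappaB motif to the end of the first Y box, 93 of 104 bases (89.4%) were the same in both genes. Only 4 of 32851 promoter windows of the mouse, each from 250 bases before to 50 bases after a start site, held the kappaB motif, the core and the X2 box together. Those 4 were H2-D1, 2 start sites of H2-K1, and R3hdm2. Over all windows, 1.06% held the kappaB motif, 7.52% the core, 7.4% the X2 box and 37.4% the Y box, each sought on both strands. In B2m the capitals are the interferon-stimulated response element (GAAA, any 2 bases and GAAA, in 3.44% of all windows) and the Y box. The Y box was found in the windows of all 6 members with an entry, which were H2-K1, H2-D1, H2-T23, B2m, Tap1 and Tapbp, and the response element also in H2-T23. A match is a description of letters and does not show that a factor binds. The search took only the exact letters given, so a missing match, as for enhancer A and X2 in B2m, does not show that an element is absent.

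The arrays carried the labels' contrast. Chat, which encodes the enzyme of acetylcholine synthesis, had a gene-level intensity of 1784 ± 50.6 (SD, n = 3) in SMNs and 12.5 ± 1.31 in the posterior horn, and Isl1, a motor neuron transcription factor, 434 ± 139 and 15.5 ± 6.16. Mnx1, another such factor, went the other way at the gene level, with 161 ± 22.9 and 229 ± 14.05 and every SMN array below (log2 fold change -0.51, limma adjusted p = 0.0709), and was higher in SMNs by exon-level medians (1.02, adjusted p = 0.00382). The array medians lay between 32.9 and 35.2 at the gene level and between 4.49 and 4.52 (log2) at the exon level. By limma with Benjamini-Hochberg adjustment, 26.4% of all gene-level rows passed an adjusted p of 0.05, with 13.8% higher and 12.6% lower in SMNs. At the exon level 1.22% of single probesets passed, and 16.8% of genes passed when each gene was given by the median of its probesets on each array. Of all probesets, 868655 carried no symbol and 319246 carried 1. The shares of all probesets given below include those without a symbol and may differ from the shares among named genes. The number of arrays limits the precision of all these values.

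Among the heavy chains, H2-D1 was higher in SMNs and H2-K1 was not, and both were measured only at the exon level. H2-D1 and H2-K1 encode the classical heavy chains of this mouse strain, and their sequences are so alike that a probeset named for one may also bind transcripts of the other, so the split between them is uncertain. The median of the 12 H2-D1 probesets was 8.80, 9.27 and 8.57 (log2 intensity) in SMN arrays 1 to 3. It was 7.48, 7.41 and 8.07 in posterior horn arrays 1 to 3. Every SMN array lay above every posterior horn array, as was so for 21.6% of all genes measured this way. The means were 8.88 ± 0.357 and 7.65 ± 0.362 (SD, n = 3), a log2 fold change of 1.23 (SE 0.25, 95% interval 0.65 to 1.80), which is 2.34-fold (limma, adjusted p = 0.0140). H2-D1 was the only one of the 8 genes that passed at this level, where 9.86% of all genes were higher and 6.91% lower. The exact permutation test of 3 against 3 arrays gave its smallest possible value, p = 0.1. With the methods' t-test in place of limma the call was lost (adjusted p = 0.0860).

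All 12 H2-D1 probesets had a positive difference, where 52.9% of all probesets did, and in 9 of them the groups did not overlap, where 10.8% of all probesets had every SMN array above. Most probesets behind these shares carried no symbol, so they are not a background of named genes. The H2-D1 differences ran from 0.02 to 2.60 (log2), with a median of 1.21. The probeset 4970695 read 10.77, 10.62 and 10.60 (log2) in the SMN arrays and 8.76, 8.999 and 9.003 in the posterior horn arrays. Its log2 fold change was 1.74 (SE 0.20, limma adjusted p = 0.0151 over all probesets). The probeset 4933051 read 11.08, 10.98 and 10.79 in SMNs and 9.59, 9.56 and 9.69 in the posterior horn. Its log2 fold change was 1.34 (SE 0.20, adjusted p = 0.0323). In both probesets the arrays of each group lay close together and far from the other group. These were the only 2 of the 119 probesets that passed, against 1.22% of all probesets, and each of 5 arrays, when left out, took both calls away. The widest difference, 2.60 (SE 0.58, adjusted p = 0.104), belonged to probeset 4394052, which read between 7.73 and 8.36 in SMNs and between 3.99 and 6.32 in the posterior horn. The brightest probeset, 5524261, differed by 0.02, with means of 13.48 and 13.46.

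**Figure D1:**
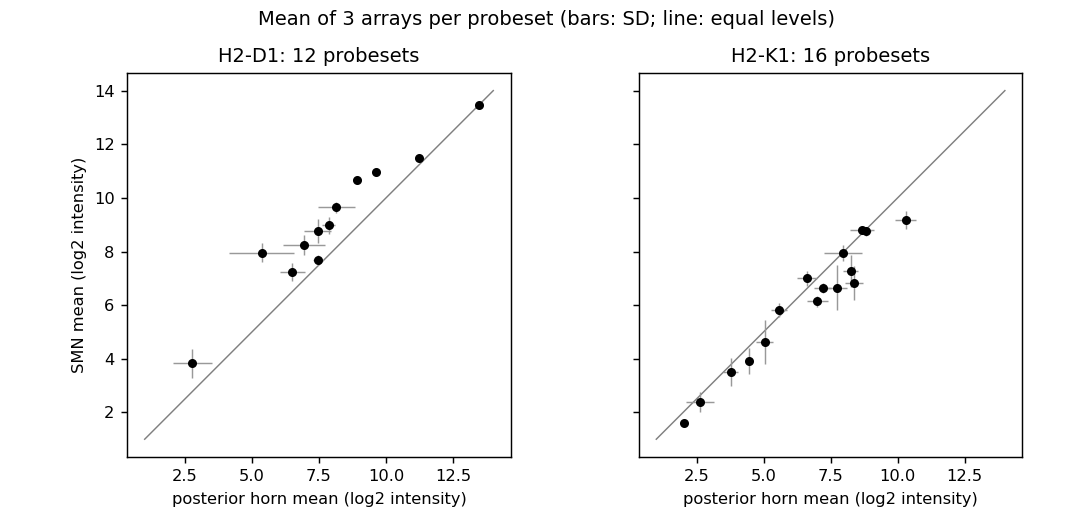
Mean log2 intensity of each probeset in SMNs (vertical axis) against the posterior horn (horizontal axis), for H2-D1 (12 probesets) and H2-K1 (16 probesets), with bars for the SD over 3 arrays and a line where both are equal. The H2-D1 points lie on or above the line, by up to 2.60, while 13 of the 16 H2-K1 points lie below it, by up to 1.56.

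H2-K1 had values that ran the other way. The median of its 16 probesets was 6.31, 6.86 and 6.55 (log2) in the SMN arrays, and 7.26, 6.72 and 7.27 in the posterior horn arrays. SMN array 2 lay above posterior horn array 2, so the groups overlapped. The log2 fold change was -0.51 (SE 0.22, 95% interval -1.01 to -0.01), and the gene did not pass (limma, adjusted p = 0.161). Of the 16 probesets, 13 had a negative difference, where 47.1% of all probesets did, and 7 had every SMN array below every posterior horn array, where 8.7% of all probesets did. None of the 16 passed adjustment, while 5 were lower at an unadjusted p under 0.05 and 0 were higher. The 2 leading probesets were 5487245 (log2 fold change -1.56, SE 0.36, limma adjusted p = 0.118) and 4375868 (-1.12, SE 0.29, adjusted p = 0.147). The latter read 8.90, 9.52 and 9.09 in SMNs against 10.15, 9.995 and 10.75 in the posterior horn.

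The difference between the 2 genes was set out on each array, a comparison chosen after their values had been seen. Since probes differ in brightness, only its change between the groups can be read. H2-D1 minus H2-K1 was 2.50, 2.41 and 2.02 (log2) in the SMN arrays and 0.22, 0.69 and 0.79 in the posterior horn arrays. The groups did not overlap, and their means, 2.31 ± 0.257 and 0.57 ± 0.305 (SD, n = 3), differed by 1.74. The exact permutation test gave p = 0.1, the smallest it can give here. The probesets within each gene also differed among themselves in fold change. By the F-test of limma's diffSplice, adjusted p was 0.00270 for H2-D1 and 0.0192 for H2-K1, and 21.4% of all genes tested passed. This test made more false calls on simulated data than its threshold allows, so its p-values may be too small, and it cannot tell isoforms from probes that respond weakly. Of the other 6 members none passed it, with Tap1 nearest (adjusted p = 0.0641).

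H2-T23 encodes Qa-1, a nonclassical heavy chain that presents signal peptides of other class I chains to natural killer cells. Its exon-level medians were 6.53, 6.61 and 6.62 (log2) in SMNs. They were 5.46, 6.25 and 6.81 in the posterior horn. The SMN arrays were nearly equal, while the posterior horn arrays spread on both sides of them. The log2 fold change was 0.41 (SE 0.31, 95% interval -0.31 to 1.13, limma adjusted p = 0.431). Of its 9 probesets 7 were positive and 2 negative, where 52.9% of all probesets were positive. In 2 of the 9 every SMN array lay above, where 10.8% of all probesets did, led by 5520070 (0.71, adjusted p = 0.312).

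**Figure D2:**
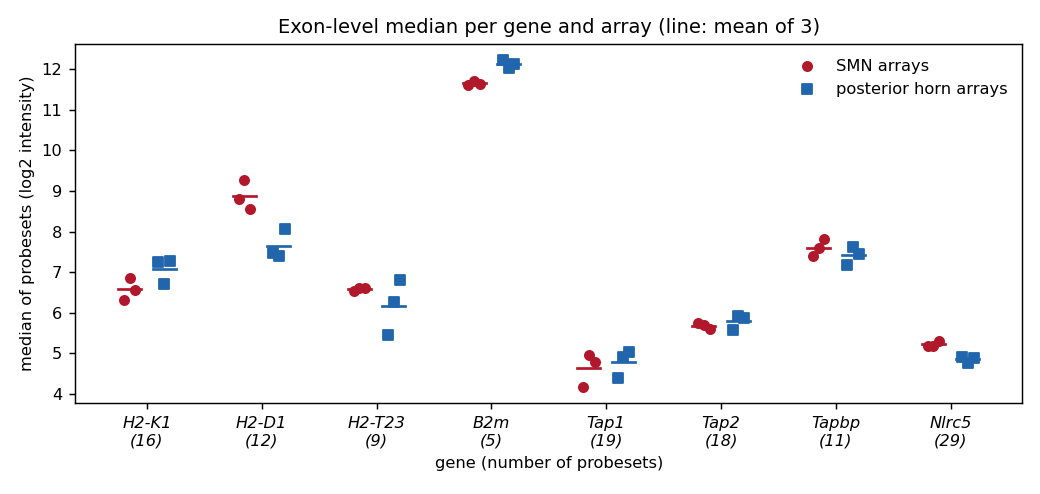
Median log2 intensity over the probesets of each gene (number in brackets) on every SMN array (circles) and posterior horn array (squares), with lines at the mean of 3. H2-D1 and Nlrc5 have all SMN arrays above, and B2m all SMN arrays below, the posterior horn arrays. In the other 5 genes the groups overlap. Of all genes measured this way, 21.6% had all SMN arrays above and 13.8% all below.

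B2m, the light chain shared by all class I heavy chains, was lower in SMNs. SMN arrays 1 to 3 read 3235, 3428 and 3204 (gene-level intensity). Posterior horn arrays 1 to 3 read 5276, 4860 and 5963. The groups did not overlap, as was so, with SMNs below, for 21.4% of all gene-level rows (24.1% had SMNs above). The means were 3289 ± 121 and 5366 ± 557 (SD, n = 3), and the log2 fold change was -0.70 (SE 0.15, 95% interval -1.07 to -0.34), which is 1.63-fold lower (limma, adjusted p = 0.0200). B2m was the only one of the 4 members with a gene-level row that passed, against 26.4% of all rows. The exact permutation test gave p = 0.1, its smallest value. Leaving out any one SMN array took the call away (adjusted p = 0.0727, 0.0646 and 0.0731 without SMN 1, SMN 2 and SMN 3), and over 17 alternatives it held in 11, with adjusted p from 7.5e-05 to 0.191 and the same direction in all.

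At the exon level all 5 B2m probesets were lower in every SMN array than in any posterior horn array. Of all probesets, 8.7% had every SMN array below. The B2m differences ran from -0.82 (probeset 4530527, SE 0.20, limma adjusted p = 0.133) to -0.32 (probeset 5310719), and none passed adjustment over all probesets. The median of the 5 probesets was 11.62, 11.72 and 11.64 (log2) in SMNs against 12.22, 12.02 and 12.14 in the posterior horn. Every SMN array lay below, as was so for 13.8% of all genes measured this way. The log2 fold change of this median, -0.47 (SE 0.14, 95% interval -0.79 to -0.15), missed the threshold (limma, adjusted p = 0.0544). By distance between log2 values centred over the 6 arrays, the rows most like B2m at the gene level were those of Tmem151b (distance 0.0863, log2 fold change -0.72), Mhrt (0.106, -0.66) and Specc1l (0.106, -0.65).

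**Figure D3:**
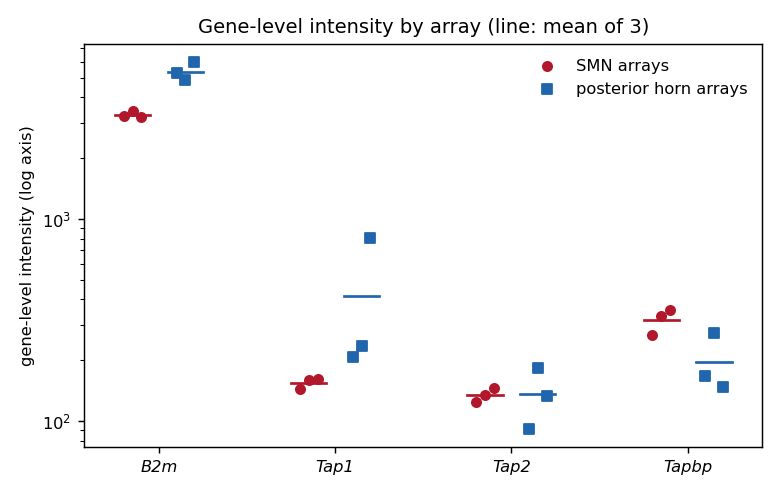
Gene-level intensity (logarithmic axis) of B2m, Tap1, Tap2 and Tapbp on each SMN array (circles) and posterior horn array (squares), with lines at the mean of 3. B2m lies at 3204 to 3428 in SMNs and at 4860 to 5963 in the posterior horn, and a single posterior horn array sets the Tap1 mean there.

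Tap1 and Tap2 encode the subunits of the peptide transporter, and neither passed at either level. Tap1 read 145, 160.2 and 160.8 (gene-level intensity) in SMNs, and 207, 235 and 803 in the posterior horn. All SMN arrays lay below, while posterior horn array 3 stood far above the other arrays of its group. The log2 fold change was -1.13 (SE 0.52, 95% interval -2.38 to 0.13, limma adjusted p = 0.159). At the exon level the median of the 19 Tap1 probesets differed by only -0.14 (adjusted p = 0.770). Posterior horn array 3 was the highest of the 6 arrays in 7 of the 19 probesets, and in 3 it exceeded the other arrays of its group by more than 1 on the log2 scale. The largest such step was in probeset 4398821, which read 6.00, 5.84 and 8.17 in the posterior horn and 6.36, 6.42 and 6.34 in SMNs. Tap1 probesets pointed both ways, with 9 positive and 10 negative differences between -1.02 and 1.45.

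Tap2 read 125, 134 and 145 (gene-level intensity) in SMNs, and 91.9, 183 and 133 in the posterior horn. The SMN arrays lay inside the range of the posterior horn arrays. The log2 fold change was 0.04 (SE 0.27, 95% interval -0.61 to 0.69, limma adjusted p = 0.929), and the exon-level median differed by -0.11 (adjusted p = 0.689). Its 18 probesets held 10 positive and 8 negative differences.

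Tapbp encodes tapasin, which ties the transporter to the empty heavy chain. Its gene-level intensity was 267, 330 and 354 in SMNs, and 168, 274 and 147 in the posterior horn. Posterior horn array 2 reached above SMN array 1, and the other posterior horn arrays lay below all SMN arrays. The log2 fold change was 0.73 (SE 0.27, 95% interval 0.07 to 1.39), and it did not pass (limma, adjusted p = 0.0957). Without posterior horn array 2 it was 1.00 and passed (adjusted p = 0.0311). The exon-level median differed by 0.19 (adjusted p = 0.550). Of the 11 probesets 8 were positive, led by 5420314 with 0.66 (SE 0.25, adjusted p = 0.323).

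Nlrc5, the class I transactivator, was measured only at the exon level. The median of its 29 probesets was 5.18, 5.18 and 5.31 (log2) in SMNs, and 4.91, 4.77 and 4.88 in the posterior horn. Every SMN array lay above, as was so for 21.6% of all genes measured this way. The log2 fold change was 0.37 (SE 0.14, 95% interval 0.06 to 0.69), and it did not pass (limma, adjusted p = 0.110). Its probesets held 16 positive and 13 negative differences, with a median of 0.08. Every SMN array lay above in 3 of the 29, a share near the 10.8% of all probesets, and below in 0. The first of these 3, 5274733, read 5.18, 5.82 and 5.39 in SMNs and 4.77, 4.77 and 4.36 in the posterior horn (log2 fold change 0.83, adjusted p = 0.219). Many of the 29 probesets were dim, and 17 lay above the median brightness of all probesets, of which 11 were positive and 6 negative.

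**Figure D4:**
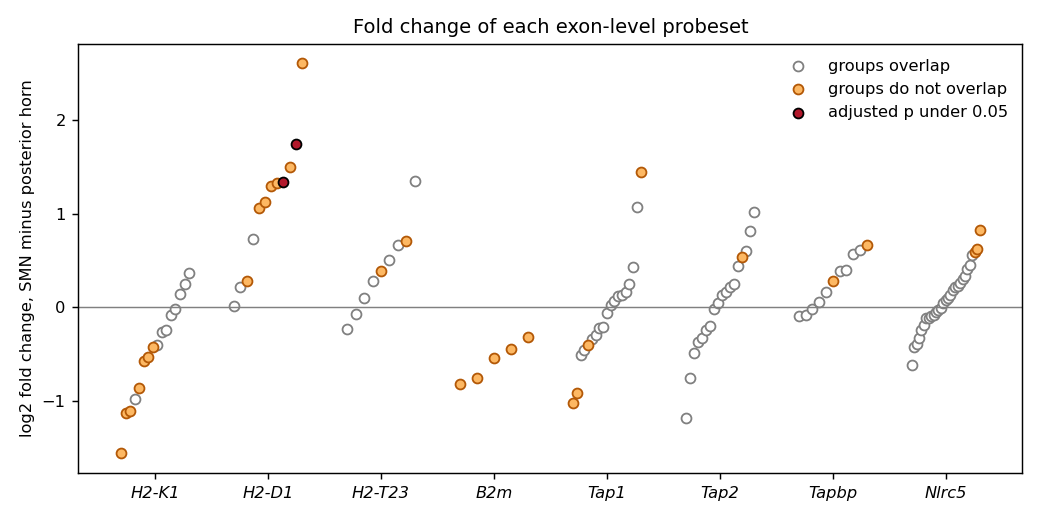
Difference between the means of the SMN and posterior horn arrays (log2, vertical axis) for each of the 119 probesets, ordered within each gene. Filled orange points have groups that do not overlap, and the 2 dark red points, both of H2-D1, passed an adjusted p of 0.05. All 12 H2-D1 points are positive and all 5 B2m points negative, where 52.9% of all probesets were positive and 47.1% negative.

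Further genes of the pathway were read from lists, each described by its counts and its median beside the median of all gene-level rows, which was 0.02, and the shares of all those rows that passed, 13.8% higher and 12.6% lower. When all rows of the table were tested, Psme1, Jak1, Ddx58 and Isg15 kept their calls and the other pathway genes named here lost them. Of 26 other class I and class I-like heavy chains 12 had a row, of which 2 were higher, 3 lower and 7 did not pass, with a median log2 fold change of -0.12. The higher count was 1 without any one SMN array. By exon-level medians, the level at which H2-D1 and H2-K1 were read, 17 were measured, with 2 higher and 1 lower. There 9.86% of all genes were higher and 6.91% lower. H2-Q7 was among the higher ones (0.76 log2, adjusted p = 0.0131), while its gene-level row did not pass (0.23 log2, adjusted p = 0.369). Whether probes of the H2-Q genes named here also bind transcripts of H2-D1 or H2-K1 was not tested. Hfe, the class I-like protein that controls iron uptake, rose from 65.5 ± 14.21 in the posterior horn to 279 ± 85.5 in SMNs (4.14-fold, adjusted p = 0.00620). H2-Q10, which encodes a secreted class I chain, was 508 ± 13.3 in SMNs and 302 ± 34.5 in the posterior horn (1.69-fold, adjusted p = 0.0170), but its exon-level median ran the other way (-0.48 log2, adjusted p = 0.0814), and the call was lost in 6 of 17 alternatives. Lower were Mr1, which presents vitamin metabolites (3.23-fold, adjusted p = 0.00503), and Fcgrt, the neonatal Fc receptor (2.44-fold, adjusted p = 0.00872). By exon-level medians Mr1 did not pass (-0.71 log2, adjusted p = 0.264). The products of Hfe and H2-Q10, among the higher genes, and of Mr1 and Fcgrt, among the lower, all pair with β2-microglobulin.

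Of 15 genes of peptide supply and loading 13 had a row, with 3 higher, 4 lower and 6 that did not pass, and a median of 0.14. The higher count fell to 1 without SMN 1, SMN 2, SMN 3 or posterior horn 2, and the lower count to 2 without SMN 1. Tpp2, a peptidase of the cytosol, was 1267 ± 87.1 in SMNs and 539 ± 52.2 in the posterior horn (2.35-fold higher, adjusted p = 0.00407). Tapbpl, which encodes a relative of tapasin that edits peptides, was 1.54-fold higher (adjusted p = 0.0266) at the gene level, while its exon-level median differed by -0.03 and 8 of 17 alternatives took the call away. The largest fall was that of Psme1, a subunit of the proteasome activator that interferon induces, at 343 ± 62.3 against 1580 ± 285 (4.59-fold, adjusted p = 0.00216). Erap1, the peptidase that trims peptides in the endoplasmic reticulum, was 3.57-fold lower (adjusted p = 0.0211), and the call was lost without SMN array 1, posterior horn array 1 or posterior horn array 3, with the methods' t-test and with all rows tested. The immunoproteasome subunit Psmb9 was also among the lower genes (2.00-fold, adjusted p = 0.00822), but not by exon-level medians (-0.70 log2, adjusted p = 0.154), and for Psmb8, another such subunit, the log2 fold change was 0.14 (adjusted p = 0.734).

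Of 17 transcription factors that act at class I promoters 14 had a row, with 1 higher, 4 lower and a median of -0.35. The lower count was 2 without any one SMN array. Rfx5, a subunit of the complex that binds the X box, was 163 ± 53.0 in SMNs and 414 ± 24.5 in the posterior horn (2.64-fold lower, adjusted p = 0.0159), and by exon-level medians it did not pass (-0.53 log2, adjusted p = 0.0812). Ep300, a histone acetyltransferase that serves many promoters, was 2.38-fold lower (adjusted p = 0.00529). Rfxap, which encodes a partner of RFX5, was 1.57-fold higher (adjusted p = 0.0368), a call that 8 of 17 alternatives took away.

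Interferon receptors and signalling genes had 11 rows of 12, with 5 higher, 2 lower and a median of 0.55. The higher count fell to 1 without any one SMN array and to 2 without posterior horn 2 or 3. Jak1, the kinase shared by the receptors for both types of interferon, was 4300 ± 97.3 in SMNs and 1395 ± 51.3 in the posterior horn (3.08-fold higher, adjusted p = 0.00127). Stat2 was 2.33-fold higher (adjusted p = 0.0319), a call lost in 8 of 17 alternatives, while Jak2 was 2.60-fold lower (adjusted p = 0.00449) and the receptor chain Ifnar1 2.01-fold lower (adjusted p = 0.00581). By exon-level medians neither passed, with -0.21 log2 for Jak2 (adjusted p = 0.414) and -0.48 for Ifnar1 (adjusted p = 0.0808). Of 26 interferon-stimulated genes 21 had a row, with 1 higher, 5 lower, 15 that did not pass and a median of -0.76. Ddx58, which encodes the RNA sensor RIG-I, was 54.0 ± 13.4 in SMNs and 285 ± 90.4 in the posterior horn (5.15-fold lower, adjusted p = 0.00399), and did not pass by exon-level medians (-0.85 log2, adjusted p = 0.0622). Isg15, a ubiquitin-like modifier, was at 2.28 ± 0.846 and 22.98 ± 7.83, near the bottom of the scale in SMNs (7.20-fold lower, adjusted p = 0.00366), and the call was lost with a floor of 16. Mx1, an antiviral GTPase, was the higher one (1.66-fold, adjusted p = 0.0371), with the call lost in 9 of 17 alternatives.

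A list drawn up as neuronal partners of class I had 11 rows of 15, with 0 higher, 5 lower and a median of -0.79. C1qa, 1 of these 5, is also counted among the lower microglia markers below. The list also holds genes that do not encode receptors for class I, among them Kirrel3 and Nptx1. A link of each gene to class I was not tested. The lower count was 3 without SMN 2 or SMN 3 and 2 without posterior horn 2. Kirrel3, an adhesion protein of the immunoglobulin superfamily, was 72.6 ± 16.8 in SMNs and 320.1 ± 131 in the posterior horn (4.19-fold lower, adjusted p = 0.0105). Nptx1, neuronal pentraxin 1, was 461 ± 199 against 1281 ± 125 (2.94-fold lower, adjusted p = 0.0180), a call lost in 5 of 17 alternatives, among them those without SMN 3, posterior horn 2 or posterior horn 3. Cd247, which encodes the CD3 zeta chain, was 618 ± 72.5 in SMNs and 1072 ± 137 in the posterior horn (1.73-fold lower, adjusted p = 0.0223), a call lost in 8 of 17 alternatives. For Pirb, which encodes a receptor for class I, the log2 fold change was 0.17 (adjusted p = 0.682). Of 11 MHC class II genes 6 had a row, and 1 passed. This was H2-DMa, a chain of the protein that loads class II, at 185 ± 18.7 in SMNs and 75.3 ± 15.9 in the posterior horn (2.46-fold higher, adjusted p = 0.00744), and by exon-level medians it did not pass (0.76 log2, adjusted p = 0.0743). By those medians 1 of the 11 passed, H2-Aa (1.21 log2 higher, adjusted p = 0.00892), whose gene-level row did not (0.31 log2, adjusted p = 0.599).

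**Figure D5:**
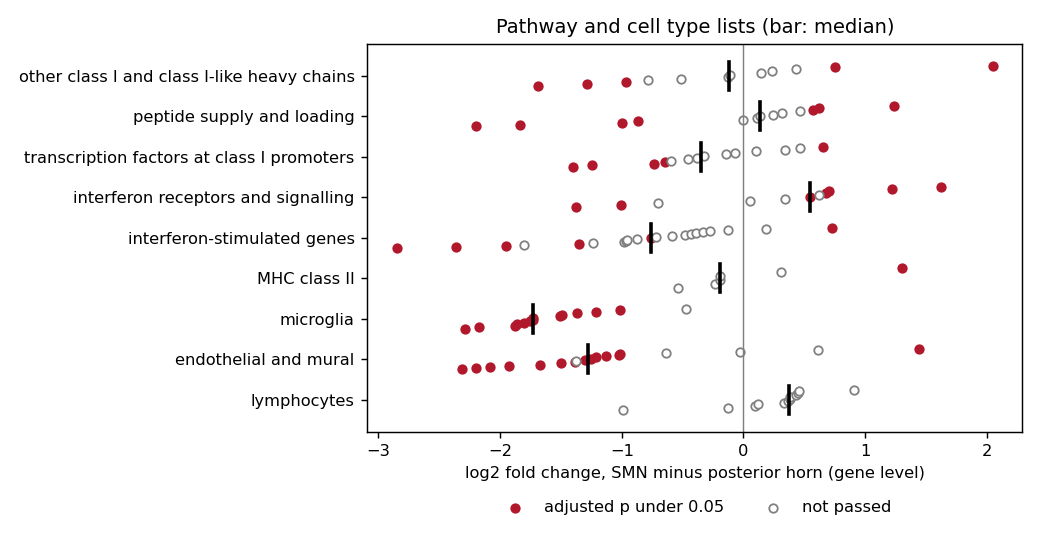
Gene-level log2 fold change, SMN minus posterior horn, of every measured gene of 9 lists (filled: adjusted p under 0.05), with a bar at the median of each list. The medians of the 6 pathway lists drawn lie between -0.76 and 0.55, and those of microglia and of endothelial and mural cells at -1.73 and -1.28.

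Markers of other cells moved between the groups beside these genes. Microglia, the cells of the cord known for class I and B2m, had 14 markers of 15 with a row, of which 0 were higher, 13 lower and 1 did not pass, with a median of -1.73. Their summed intensity was 4091 to 4355 in the SMN arrays and 11971 to 13416 in the posterior horn arrays. Itgam, which encodes CD11b, was 4.89-fold lower (adjusted p = 0.00765) and Fcrls 4.51-fold lower (adjusted p = 0.00373). Endothelial and mural cells, which also express class I, had 1 higher and 13 lower of 18 measured markers of 20, a median of -1.28, and sums of 4842 to 5271 against 10428 to 11821. Tek, the angiopoietin receptor, was 4.97-fold lower (adjusted p = 0.00124), and Egfl7, of the vessel wall, was the higher one (2.72-fold, adjusted p = 0.0191), a call lost in 7 of 17 alternatives. Astrocyte markers (1 higher and 9 lower of 10 measured, sums of 9404 to 10284 against 21503 to 22644) and oligodendrocyte markers (0 higher and 12 lower of 12, sums of 18742 to 19996 against 35714 to 37219) were lower too, and the oligodendrocyte count was 8, 6 and 7 without SMN 1, SMN 2 and SMN 3. Lymphocyte markers had 0 of 12 that passed in either direction, and sums of 1278 to 1604 against 1021 to 1352. The higher and the lower count each moved to 1 in 7 of 17 alternatives. No marker of these lists was at 0 on any array. SMN markers summed to 26276 to 27307 in SMNs and 631 to 750.4 in the posterior horn, with 8 of 9 higher and Mnx1 as the exception. The direction of these glial and vascular markers was that of B2m and opposite to that of H2-D1, and their part in either result was not tested.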

How the data were processed

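RNA was extracted and linearly amplified by the authors, and the 6 arrays were hybridised once. The authors deposited gene-level values as linear intensity and exon-level values as log2 intensity of the same 6 arrays, made with Affymetrix Expression Console 1.3.1.187, so the exon level adds no replicates. The sources used here do not give the background correction, the summarisation or the genome build. With similar medians, the values were not normalised again, and log2(intensity + 1) was taken at the gene level.

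Groups were compared by a two-sided moderated fit (R 4.3.3, limma 3.58.1, functions lmFit and eBayes), with adjustment after Benjamini and Hochberg over all 24343 gene-level rows with 1 symbol, all 1195555 probesets, or the medians of 22345 symbols. The gene-level fit was tested on simulated data, and the fits on single probesets and on medians were not. All p-values named adjusted are from limma unless another test is named. Single values were also compared by a two-sided exact permutation test, which cannot give a p below 0.1. Symbols came from the platform annotation (1797 gene-level rows had several symbols and 212469 none here). Promoters were matched by symbol to RefSeq for 6 of 8 members, while Tap2 and Nlrc5 had none in the table.

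The members and lists were chosen with earlier results of these data known. By rule, the text names the 8 members, up to 2 rises and 2 falls that passed from each list (otherwise its 2 brightest genes), the 3 rows nearest B2m, and Chat and Isl1 as checks. Some genes that the rule picked, such as those of the lymphocyte list, were left out. Psmb8, Psmb9, Pirb, Cd247, Mnx1, H2-Q7, H2-Aa and C1qa were added after their values were seen, as was the use of exon-level medians as a result of their own. The other lists were dorsal horn neurons (0 higher and 7 lower of 12) and neurons in general (6 higher and 1 lower of 10). Alternatives changed the normalisation, the filter on dim rows, the value added, the variance model, the test (the methods' t-test), the rows tested, the replicate block and the arrays used.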

Additional observations from a re-analysis of the deposited data

How the results depend on the processing

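Of the 4 members at the gene level 1 was called (B2m), against 0 with the replicate block, with all rows tested and with exon-level medians, and 0 to 2 when each array was left out. Of all 24343 rows with 1 symbol 6420 were called, against 3798 with the block and 3284 to 5485 when each array was left out. The highest count over the 17 alternatives was 7709, with a variance trend and robust estimation. With all rows tested it was 2008 of 238609, and with exon-level medians 3748 of 22345 genes. Of the 119 probesets 2 were called, against 11 with a variance trend and robust estimation (5 H2-D1 probesets higher, 4 B2m and 2 H2-K1 probesets lower), 5 when only probesets with 1 symbol were tested, 0 with the block, and 0 to 2 when each array was left out. By exon-level medians 1 member was called (H2-D1), against 2 with quantile normalisation, with a variance trend and robust estimation and with the methods' t-test, 3 with the mean in place of the median or without the dimmer 50% of probesets, and 1 without any single array. Over the 12 alternatives for these medians H2-D1 passed in 11, all but the methods' t-test. B2m passed in 5 of them, H2-K1 in 2 and Nlrc5 in 1. The alternatives for these medians were chosen after seeing the data. The cause of these changes was not tested.

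Deviations of SMN and posterior horn arrays with the same replicate number correlated at 0.03, -0.01 and 0.02. For arrays with different numbers the correlations ran from -0.04 to 0.03. Whether same-numbered arrays came from the same mouse was not tested. With the number as a block B2m missed the threshold (adjusted p = 0.0672, limma) and H2-D1 by exon-level medians kept it (adjusted p = 0.0417).

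The direction of Tap2 turned at the gene level without SMN 3 (-0.01) and without posterior horn 1 (-0.21), in a range from -0.21 to 0.28 when each array was left out, and by exon-level medians (-0.11), and at the exon level with the mean in place of the median (0.038). That of Tap1 by exon-level medians turned without SMN 1 (0.0905, in a range from -0.33 to 0.0905) and without the dimmer 50% of probesets (0.032). B2m and H2-D1 kept their direction in all 17 and 12 alternatives run for them. Called counts of the lists also moved: with all rows tested, 4 microglial and 3 endothelial and mural genes were lower.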
